A study of Mus musculus with 2 samples.

Results

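Glycosyltransferase genes, whose enzymes build the outer chains of cell-surface and secreted glycans, were followed in epithelial cells of the mouse esophagus in a wild-type and a p63-KO library. The members were taken by gene symbol: every gene of the deposited feature table whose symbol began with Galnt, Gcnt, B3gnt, B3galt, B4galt, C1galt, St3gal, St6gal, St6galnac, St8sia or Fut followed by a digit or the letter l. The symbols gave 78 of 32285 genes. Among them are 2 antisense RNAs (Galnt6os and St8sia3os), C1galt1c1, which encodes a chaperone and not a transferase, and a pair of entries that share the symbol St6galnac2.

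Mucin-type O-glycans are started in the Golgi by the Galnt enzymes, which put N-acetylgalactosamine (GalNAc) on serine and threonine. C1galt1 turns that sugar into the core 1 disaccharide, Gcnt and B3gnt enzymes branch or extend it, B4galt and B3galt enzymes add galactose, and fucosyltransferases (Fut) and sialyltransferases (St3gal, St6gal, St6galnac, St8sia) cap the chains. Many of these enzymes also work on N-glycans and glycolipids, and mucus-secreting epithelia such as those of the stomach, intestine and airway are known for dense O-glycans, whereas the squamous esophagus of the adult mouse is not a mucous epithelium.

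Single-cell RNA sequencing of the esophagus was done on mouse embryos of the C57BL/6 strain at E18.5, late in gestation, with 1 library for each of the groups. The library labelled wild type (WT) came from littermates whose genotype is given as p63-CreER, so its cells carry a CreER allele too, and the p63-KO library came from p63-CreER/p63-CreER embryos. Both were prepared as epithelium, with muscle pulled off. With 1 library for each genotype there is no replicate check, the genotype cannot be told apart from the library, no test was run, and every interval below is a 95% interval for counting error only. The number of embryos behind a library is not given in the labels.

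The WT library held 76472445 UMIs (unique molecular identifiers, each standing for 1 captured transcript) and the p63-KO library 86504624, and 5519 and 2375 cells were kept. Of these, 5366 WT cells and 1675 p63-KO cells were epithelial-like, with a median of 11052 and 25250 UMIs and of 3.10% and 4.42% mitochondrial UMIs. Trp63, the gene of p63, was counted at 302 CPM (a gene's UMIs per 1000000 UMIs of the same cells) in WT and 118 CPM in p63-KO epithelial-like cells; where in the gene the allele sits is not given in the labels, so counts from transcript 3' ends do not check the genotype. The p63-KO library also held 518 fibroblast-like cells, against 10 in WT, and 8 fibroblast markers summed to 565 CPM in p63-KO and 43.9 CPM in WT epithelial-like cells, 1.25% and 0.0968% of their level in the p63-KO fibroblast-like cells. 8 barcodes were shared by the libraries. Since 3' counts do not rank genes against each other, levels are compared within a gene.

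Cells were grouped without using the member genes. WT epithelial-like cells gave basal-like (2257 cells), suprabasal-like (cluster 2 with 818 cells and cluster 4 with 493), superficial squamous-like (393) and cycling-like (1337) cells. Basal-like clusters 1 and 3 were named against the mean of both libraries and cluster 9 within its own library. Replication genes such as Timeless, Mcm3 and Mcm5 led basal-like cluster 3 (777 cells). Its cycling markers summed to 515 CPM, against 2484 CPM in WT cycling-like cells. Cluster 4 had more superficial than suprabasal markers among its top 10 genes, so both suprabasal-like clusters are given by number. The p63-KO epithelial-like cells gave mucous-like (359 cells, clusters 3 and 6), cycling-like (270), neuroendocrine-like (349), ionocyte-like (156) and ciliated-like (58) cells, and 2 clusters left unnamed. Neuroendocrine-like cluster 8 (86 cells) passed with 4 of 9 markers. None of them was among its 10 leading genes, which Gzma and Cnpy1 headed. Its neuroendocrine markers summed to 2483 CPM, against 8757 CPM in cluster 4 and 23262 CPM in cluster 11. Unnamed cluster 5 (199 cells) was led by haemoglobin genes and Cryab and had all 12 epithelial markers at 5 CPM or more. Mucous-like cluster 3 was named against the mean of both libraries and cluster 6 within its own library, each with 6 of 12 mucous markers passing. Muc5b, Agr2, Creb3l1 and Spink4 were among the leading genes of cluster 3 against that mean. Within its own library Muc5b and Agr2 led it, as did Uty and Ddx3y, genes of the Y chromosome. Muc5b and Tff2 were among the leading genes of cluster 6. The mucous markers summed to 4512 CPM in cluster 3 and 9372.5 CPM in cluster 6, against 2999.8 CPM in all p63-KO epithelial-like cells. At 5 CPM or more were 6 of the 12 in the mucous-like cells, as in clusters 1 and 5. Unnamed p63-KO cluster 1 (284 cells) carried 8 of 10 columnar markers above the mean of both libraries, but Krt13 and Sprr1a, genes of squamous cells, led it within its own library. Its columnar markers summed to 8766 CPM, against 6260.4 CPM in all p63-KO epithelial-like cells, and its suprabasal markers to 8689 against 4370.0 CPM, so it is given by number. Neutrophil genes (S100a9, S100a8, Ngp and Camp) led the p63-KO cycling-like cells; 10 of 11 cycling markers passed in them and summed to 876 CPM, against 382 CPM in all p63-KO epithelial-like cells, 883 CPM in ionocyte-like cluster 7 and 2484 CPM in WT cycling-like cells. Median depth ran from 13129 to 69720 UMIs over the p63-KO clusters and from 1629 to 23666 over the WT clusters.

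Most of the glycosyltransferase genes that were measured stood higher in the p63-KO epithelial-like cells. A gene counted as measured from 5 CPM in either library and as higher or lower from a 2-fold ratio of CPM. Of the 78 members, 45 were measured, and of these 26 were higher in p63-KO, 4 were lower and 15 were neither. Over all 11776 measured genes, 15.1% were higher and 8.80% were lower by the same rule. The median log2 ratio (p63-KO over WT, 1 CPM added to each) came to 1.43 over the measured members and -0.02 over all measured genes. A member that is high in p63-KO alone could pass the filter only by being different, so these counts describe the measured members and not all 78; 11 of the 26 higher ones were under 5 CPM in WT. The same holds for every count between groups below. The remaining 33 members stayed under 5 CPM in both libraries.

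**Figure D1:**
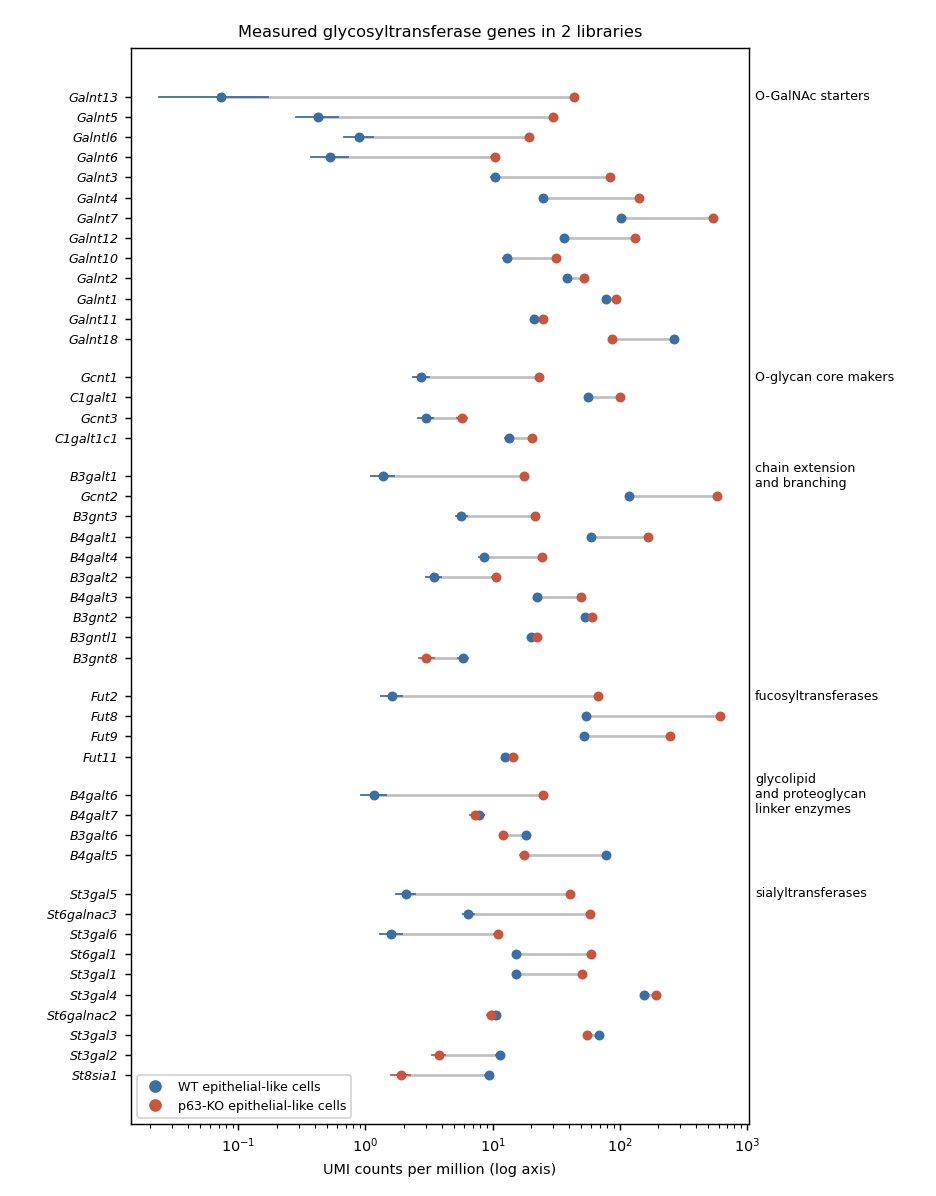
CPM (log axis) of each measured member in WT (blue) and p63-KO (red) epithelial-like cells, grouped by role, with 95% counting intervals as thin lines that are often narrower than the point. The 26 members called higher have the red point at least 2-fold to the right, and Galnt18, B4galt5, St3gal2 and St8sia1 have it at least 2-fold to the left.

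The promoters of 3 members are shown, because these had the largest log2 ratios in their direction among measured members with a single RefSeq window: Galnt13 and Galnt5, higher in p63-KO, and B4galt5, lower. Windows of 300 bases, 250 before to 50 after the gene start, were found for 56 of the 78 members in RefSeq (build GRCm38.p6), and each is written 5′ to 3′ on the gene's strand with CG dinucleotides in capitals. Galnt13 (chr2:54436137-54436436, plus strand) has 28 CG and 73.0% G or C, Galnt5 (chr2:57997905-57998204, plus strand) has 5 CG and 54.3%, and B4galt5 (chr2:167349129-167349428, minus strand) has 31 CG and 75.0%.
Galnt13: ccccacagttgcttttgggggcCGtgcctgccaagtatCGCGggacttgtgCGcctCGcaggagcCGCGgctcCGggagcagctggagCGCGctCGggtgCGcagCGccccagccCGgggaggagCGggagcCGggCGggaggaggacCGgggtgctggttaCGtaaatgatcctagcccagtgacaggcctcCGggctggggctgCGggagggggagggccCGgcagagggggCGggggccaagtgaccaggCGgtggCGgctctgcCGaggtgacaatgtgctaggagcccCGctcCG
Galnt5: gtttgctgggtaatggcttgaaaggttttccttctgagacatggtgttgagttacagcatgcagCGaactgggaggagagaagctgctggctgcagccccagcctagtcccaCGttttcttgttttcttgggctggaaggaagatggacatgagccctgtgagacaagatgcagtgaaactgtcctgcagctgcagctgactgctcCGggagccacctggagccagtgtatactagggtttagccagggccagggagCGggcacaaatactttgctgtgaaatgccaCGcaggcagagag
B4galt5: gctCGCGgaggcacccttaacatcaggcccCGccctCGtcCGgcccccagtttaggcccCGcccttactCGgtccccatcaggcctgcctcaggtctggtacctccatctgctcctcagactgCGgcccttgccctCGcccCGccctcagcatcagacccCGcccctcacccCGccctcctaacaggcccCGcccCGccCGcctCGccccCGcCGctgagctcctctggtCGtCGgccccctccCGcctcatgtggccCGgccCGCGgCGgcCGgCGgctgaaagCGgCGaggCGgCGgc
Over all 32851 windows of that table, which also holds noncoding genes, the median number of CG was 7 and the quartiles were 3 and 20. Of the 26 members called higher, 20 had a window, and the median of their highest CG count was 22.5, against 25 for the 10 measured members with a window that were neither higher nor lower. Galnt13 and B4galt5, which moved in opposite directions, thus both have a CG-rich start, and Galnt5 does not.

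The Galnt enzymes, grouped here as starters of O-glycans, held 19 members, of which 13 were measured. In p63-KO, 9 were higher and 1 was lower, beside 15.1% and 8.80% of all measured genes. Galnt7 (ENSMUSG00000031608, chromosome 8, 57523828 to 57653032; mm10, as all gene positions here), an enzyme that prefers peptides already carrying GalNAc, was at 102 CPM (99.9 to 105) in WT and 548 CPM (542 to 553) in p63-KO epithelial-like cells. The p63-KO level was 5.35-fold (5.22 to 5.49) higher. It was higher still in the mucous-like cells, where cluster 6 had 1164 CPM and cluster 3 had 763 CPM, against 516 CPM in p63-KO cluster 1 and 145 CPM in neuroendocrine-like cells.

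Galnt3, Galnt4 and Galnt12, starters known from secretory epithelia, were higher too. Galnt12 was at 36.4 CPM (34.9 to 37.8) in WT and 133 CPM (130.2 to 136) in p63-KO, 3.65-fold higher. Galnt3 was at 10.4 CPM (9.64 to 11.2) in WT and 84.4 CPM (82.2 to 86.5) in p63-KO, 8.12-fold higher. Galnt4 was at 25.1 CPM (23.9 to 26.3) and 142 CPM (139.7 to 145), 5.68-fold higher, but it lies within Poc1b on the same strand, so counts of these genes may be split between them. In each of these genes the highest level of any cluster of the p63-KO library was in mucous-like cluster 6: 255 CPM for Galnt12, 112 CPM for Galnt3 and 264 CPM for Galnt4.

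Galnt5 was close to absent from the WT epithelium. It had 29 UMIs in WT, 0.425 CPM (0.285 to 0.610), and 2143 UMIs in p63-KO, 29.9 CPM (28.6 to 31.2), a difference of 70.3-fold (48.8 to 105). Its promoter window, shown above, has 5 CG, between the lower quartile and the median of all windows. Within p63-KO it was at 46.2 CPM in mucous-like, 26.8 CPM in cluster 5, 23.5 CPM in p63-KO cluster 1 and 14.3 CPM in neuroendocrine-like cells, and at 0.862 CPM in fibroblast-like cells. Every p63-KO epithelial-like class was above every WT class.

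Galnt6 was narrower. In WT epithelial-like cells it had 0.528 CPM (0.369 to 0.730) and in p63-KO 10.5 CPM (9.72 to 11.2). The p63-KO classes split: cluster 6 had 42.5 CPM, cluster 3 13.4 CPM, ciliated-like cells 30.3 CPM and neuroendocrine-like cells 16.9 CPM, while p63-KO cluster 1 had 2.02 CPM and cluster 5 0.618 CPM. Galntl6 followed a like split, at 0.894 CPM in WT and 19.2 CPM in p63-KO epithelial-like cells, with 44.4 CPM in cluster 6, 13.7 CPM in cluster 3, 75.7 CPM in neuroendocrine-like cluster 4 and 112 CPM in ciliated-like cells.

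Galnt13, a starter best known from neurons, was high in cells outside the mucous-like classes. It had 5 UMIs in all WT epithelial-like cells and 3146 in p63-KO, 0.0733 and 43.8 CPM. Ionocyte-like cells held 309 CPM (295 to 323), with 572 CPM in cluster 7 and 119.9 CPM in cluster 10, and neuroendocrine-like cells 175 CPM (164 to 187), with 266 CPM in cluster 4, 129 CPM in cluster 11 and 11 CPM in cluster 8. Mucous-like cells had 5.44 CPM, p63-KO cluster 1 3.54 CPM and fibroblast-like cells 12.1 CPM. The gene was thus high in some ionocyte-like and neuroendocrine-like clusters and low in the other epithelial-like cells.

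Galnt18 was the measured member of this group that went the other way. It had 266 CPM (263 to 270.3) in WT and 86.9 CPM (84.8 to 89.1) in p63-KO, 3.06-fold (2.98 to 3.15) lower in p63-KO. In WT it was highest in basal-like cluster 9 at 519 CPM, and every p63-KO epithelial-like class was below the WT basal-like level of 406 CPM; ciliated-like cells came nearest, at 209 CPM. Endothelial-like cells of the p63-KO library had 431 CPM. Galnt10 was higher in p63-KO (12.9 and 31.7 CPM, 2.46-fold), and the widely expressed starters Galnt1, Galnt2 and Galnt11 differed by less than 2-fold, at 78.3 and 93.2, 38.4 and 52.0, and 21.4 and 24.8 CPM. Galnt15, Galnt16 and Galnt17 stayed under 5 CPM in both epithelia and were high in other cells: Galnt17 was at 446 CPM and Galnt16 at 157 CPM in p63-KO fibroblast-like cells, and Galnt15 was at 33.2 CPM in endothelial-like cells.

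At the step after the start, 7 members make or help to make the cores. Of these, 4 were measured and 1 was higher, too few to set against the 15.1% of all measured genes. C1galt1, the core 1 enzyme, had 56.0 CPM (54.2 to 57.8) in WT and 100.1 CPM (97.8 to 102) in p63-KO, 1.79-fold higher, and its chaperone C1galt1c1 had 13.4 and 20.5 CPM. Both were highest in neuroendocrine-like cells, at 232 and 36.5 CPM. Gcnt1, a core 2 branching enzyme, was the member called higher, at 2.74 CPM (2.36 to 3.16) and 23.2 CPM (22.1 to 24.3), 8.45-fold (7.26 to 9.88).

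Gcnt3, the core 2 and core 4 enzyme of mucus-secreting tissues, came close to the threshold without passing it, at 2.97 CPM (2.58 to 3.41) and 5.76 CPM (5.21 to 6.34), 1.93-fold. Its cells differed in both libraries. In WT it was at 17.7 CPM in superficial and 0.224 CPM in basal-like cells, and in p63-KO at 23.1 CPM in mucous-like cluster 6, 8.17 CPM in cluster 3 and 2.43 CPM in p63-KO cluster 1. B3gnt6, the core 3 enzyme, had 39 UMIs in WT and 99 in p63-KO, 0.572 and 1.38 CPM. Gcnt4 and Gcnt7 were not measured either.

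Chain extension and branching held 15 members, of which 10 were measured, 7 were higher and none was lower in p63-KO. Over all measured genes the shares were 15.1% and 8.80%. Gcnt2, which adds the I-antigen branch to poly-N-acetyllactosamine chains, was at 118 CPM (116 to 121) in WT and 582 CPM (577 to 588) in p63-KO, 4.92-fold (4.80 to 5.04) higher. Cluster 1 of p63-KO had 753 CPM and mucous-like cells 697 CPM; neuroendocrine-like cells, at 142 CPM, lay between WT basal-like and superficial cells, at 90.7 and 190.0 CPM. This gene was spread over the p63-KO epithelium except for the neuroendocrine-like cells.

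B4galt1, the main β1,4-galactosyltransferase of N-acetyllactosamine, was at 59.5 CPM (57.7 to 61.4) and 166 CPM (163 to 169), 2.80-fold higher in p63-KO. Fibroblast-like cells had more, 340.5 CPM, and mucous-like cells had 216 CPM. B4galt3 and B4galt4 were also higher, 2.23-fold and 2.89-fold, and B4galt3 was the member closest above the threshold. B3gnt3, which extends core 1, was at 5.69 CPM in WT and 21.4 CPM in p63-KO, 3.77-fold higher, and B3galt2 was at 3.44 and 10.6 CPM, 3.09-fold.

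B3galt1 was 13.0-fold higher, at 1.36 CPM (1.10 to 1.67) in WT and 17.7 CPM (16.7 to 18.7) in p63-KO. Neuroendocrine-like and ciliated-like cells of p63-KO held 85.1 and 63.7 CPM, and cluster 1 and the mucous-like cells 8.18 and 11.1 CPM. Fibroblast-like cells had 271 CPM; fibroblast markers in the p63-KO epithelial-like cells stood at 565 CPM, against 43.9 CPM in WT, and their part in the B3galt1 difference was not tested. B3gnt2, which elongates poly-N-acetyllactosamine, and B3gntl1 were alike in both libraries, at 53.4 and 60.2 and at 20.2 and 22.2 CPM, and B3gnt8 was just short of the lower threshold at 5.86 and 3.01 CPM. B4galt2 and B3gnt9 stayed under 5 CPM in both libraries; B4galt2 reached 25.6 CPM in neuroendocrine-like cluster 4 and both reached over 20 CPM in fibroblast-like cells, at 20.9 and 23.3 CPM.

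Fucosyltransferases showed some of the widest differences. Of 8 members, 4 were measured and 3 were higher, too few to set against the 15.1% of all measured genes. Fut2, the secretor enzyme that makes α1,2-fucosylated H antigen on mucosal surfaces, was at 1.61 CPM (1.32 to 1.94) in WT and 67.0 CPM (65.1 to 68.9) in p63-KO, 41.6-fold (34.4 to 50.7) higher. Mucous-like cells had 102 CPM (131 in cluster 6), p63-KO cluster 1 67.9, cluster 5 56.2, ionocyte-like cells 38.4 and neuroendocrine-like cells 8.56 CPM. No WT cluster exceeded the 4.32 CPM of cluster 4.

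Fut8, the single enzyme of core α1,6-fucose on N-glycans, was at 54.9 CPM (53.1 to 56.6) in WT and 619 CPM (613 to 624) in p63-KO, 11.3-fold (10.9 to 11.7) higher. WT layers were even, from 42.4 CPM in cluster 4 to 63.1 CPM in basal-like cells. Each p63-KO epithelial-like class was above them, from 131 CPM in neuroendocrine-like cluster 11 (48 cells) to 804 CPM in mucous-like cluster 6, and neuroendocrine-like cluster 8 had 723 CPM. Its presence in fibroblast-like cells was 91.6 CPM.

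Fut9, the enzyme of the Lewis x epitope, was at 52.3 CPM (50.6 to 54.0) and 249.6 CPM (246 to 253), 4.77-fold (4.61 to 4.95) higher in p63-KO, but its level depended on the WT layer. Basal-like cells had 2.37 CPM (1.78 to 3.10), cluster 2 4.63 CPM, cluster 4 59.3 CPM and superficial cells 320.3 CPM (309 to 332). Cluster 1 of p63-KO had 325 CPM (314 to 337) and mucous-like cells 271 CPM (264 to 278), near the WT superficial level, and neuroendocrine-like cells had 15.0 CPM. The 3 fucosyltransferases thus differed in where WT stood: Fut2 was low in every layer, Fut8 was even, and Fut9 was high at the surface. Fut11 was alike at 12.6 and 14.6 CPM, Fut10 was found mainly in fibroblast-like cells (36.2 CPM), Fut1 and Fut4 were under 5 CPM, and Fut7, the leukocyte sialyl Lewis x enzyme, had 0 UMIs in both epithelia, where a count of 0 allows up to 0.0440 CPM in WT and 0.0418 CPM in p63-KO.

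**Figure D2:**
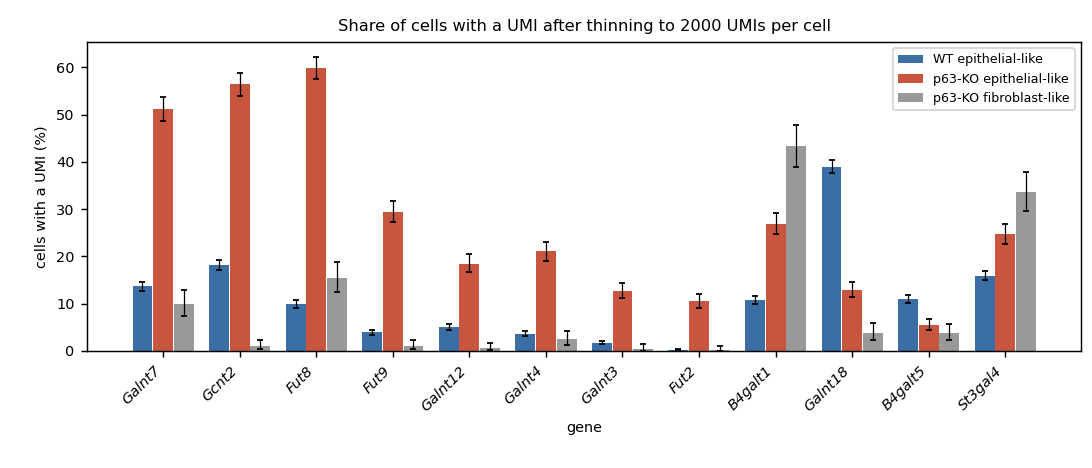
Share of cells with a UMI (%) of 12 members after each cell was thinned to 2000 UMIs, in WT epithelial-like (blue), p63-KO epithelial-like (red) and p63-KO fibroblast-like cells (grey), with exact 95% intervals. Gcnt2 goes from 18.2% to 56.4% with 0.977% in fibroblast-like cells, and Galnt18 and B4galt5 go down.

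Since p63-KO cells were deeper, shares of cells were compared after thinning every cell to 2000 UMIs, which left 5282 WT and 1651 p63-KO epithelial-like cells and 512 fibroblast-like cells. Fut8 was found in 9.88% (9.09 to 10.7) of WT and 59.8% (57.4 to 62.2) of p63-KO cells, Gcnt2 in 18.2% (17.2 to 19.3) and 56.4% (54.0 to 58.8), and Galnt7 in 13.7% (12.7 to 14.6) and 51.2% (48.7 to 53.6). The fibroblast-like cells held them in 15.4%, 0.977% and 9.96% of cells, at a median depth of 10809 UMIs before thinning. Fut2 was found in 0.265% (0.145 to 0.444) and 10.5% (9.04 to 12.1) of cells, with 0.195% in fibroblast-like cells. Of the 26 members called higher, 22 had a larger thinned share in p63-KO epithelial-like than in fibroblast-like cells, and B3galt1, B4galt1, St6gal1 and St6galnac3 did not; those 4 were also higher in fibroblast-like than in p63-KO epithelial-like cells by CPM, by as little as 63.6 against 59.5 for St6gal1. Without thinning, Fut8 would read as 40.7% and 93.7% of cells.

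Glycolipid synthesis and the proteoglycan linker held 6 members, 4 of them measured, with 1 higher and 1 lower. These are too few to set against the 15.1% and 8.80% of all measured genes. The pair that makes lactosylceramide, the root of most glycosphingolipids, went in opposite directions. B4galt5 was at 77.8 CPM (75.7 to 79.9) in WT and 17.5 CPM in p63-KO, 4.43-fold (4.17 to 4.72) lower, and B4galt6 was at 1.16 CPM (0.917 to 1.44) and 24.9 CPM (23.8 to 26.1), 21.5-fold (17.2 to 27.3) higher. The cells differed too. B4galt6 was at 159.9 CPM in ionocyte-like and 51.0 CPM in neuroendocrine-like cells, against 8.36 in mucous-like and 5.36 CPM in p63-KO cluster 1, and B4galt5 within p63-KO was highest in neuroendocrine-like cells, at 65.5 CPM. In WT, B4galt5 was at 23.3 CPM in basal-like and 182 CPM in cluster 4, so the level in p63-KO cluster 1 of 9.09 CPM was below every WT layer. B3galt6 and B4galt7, which build the linker of proteoglycans, differed by less than 2-fold, at 18.4 and 12.2 and at 7.87 and 7.27 CPM. B3gnt5 stayed under 1 CPM in both epithelia and was at 22.9 CPM in the smooth muscle-like or pericyte-like cells.

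Of 21 sialyltransferases, 10 were measured, 5 were higher and 2 were lower, beside 15.1% and 8.80% of all measured genes. Of the 5 higher ones, 2 were under 5 CPM in WT, and the 2 lower ones were under it in p63-KO. St3gal5, which makes the ganglioside GM3 from lactosylceramide, was at 2.08 CPM (1.75 to 2.45) and 40.7 CPM (39.3 to 42.2), 19.6-fold (16.5 to 23.3) higher in p63-KO. It was spread over the p63-KO classes, from 20.6 CPM in neuroendocrine-like to 50.3 CPM in mucous-like cluster 3, and the WT clusters of at least 50 cells did not exceed 5.16 CPM, found in cycling-like cluster 7. St8sia1, which turns GM3 into GD3, went the other way, at 9.41 CPM (8.69 to 10.2) in WT and 1.90 CPM (1.59 to 2.24) in p63-KO, 4.96-fold (4.12 to 6.02) lower. WT superficial cells had 49.6 CPM (45 to 54.4) of it and basal-like cells 0.447 CPM.

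St6gal1, the enzyme of α2,6-linked sialic acid on N-glycans, was at 15.3 CPM (14.4 to 16.3) and 59.5 CPM (57.7 to 61.3), 3.88-fold (3.63 to 4.16) higher in p63-KO. In WT it was at 36.2 CPM in basal-like cluster 1 and at 1.02 CPM (0.467 to 1.94) in superficial cells. Within p63-KO, cluster 5 had 117 CPM, cluster 1 55.7, mucous-like cluster 3 50.9 and cluster 6 21.2 CPM. All p63-KO epithelial-like classes thus exceeded the WT superficial level. St6gal1 was also at 63.6 CPM in fibroblast-like cells, and 8 immune markers summed to 5.30 CPM in WT and 13.9 CPM in p63-KO epithelial-like cells; the part of other cells' RNA, at these marker levels and those of fibroblasts above, was not tested.

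St6galnac3 was 9.06-fold higher, at 6.46 and 58.6 CPM, with 133 CPM in cluster 5, 31.9 CPM in p63-KO cluster 1 and 7.51 CPM in mucous-like cluster 6. Endothelial-like cells of p63-KO had 476 CPM; 8 endothelial markers summed to 6.93 CPM in WT and 12.3 CPM in p63-KO epithelial-like cells, and to 6.8 CPM in cluster 5. Fibroblast-like cells had 78.0 CPM of it. In cluster 5 the fibroblast markers summed to 835 CPM and 4 erythroid markers to 295 CPM, against 58.0 CPM for the latter in all p63-KO epithelial-like cells, and their part was not tested. St3gal1, the enzyme of sialylated core 1, was at 15.3 and 50.9 CPM, 3.33-fold higher, and St3gal6 was at 1.6 and 11.1 CPM, 6.92-fold, with most of it in neuroendocrine-like cells (101 CPM). St3gal2 was at 11.5 CPM (10.7 to 12.4) and 3.78 CPM (3.34 to 4.25), 3.05-fold (2.66 to 3.52) lower in p63-KO.

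Of the sialyltransferases that were neither, St3gal4, which sialylates N-acetyllactosamine ends, was at 155 CPM (152 to 158) and 195 CPM (192 to 198), 1.26-fold, St3gal3 at 68.6 and 55.7 CPM and St6galnac2 at 10.6 and 9.73 CPM. A second entry for St6galnac2, which overlaps the first, had 3 and 4 UMIs. St6galnac1, which sialylates the first GalNAc, had 2 UMIs in WT and 1 in p63-KO. St6galnac6 was under 5 CPM in both epithelia, at 17.9 CPM in mucous-like cluster 6 and at 27.6 CPM in endothelial-like cells, and St6gal2 and St6galnac4 were highest outside the epithelium, St6gal2 at 114 CPM in smooth muscle-like or pericyte-like and St6galnac4 at 29.5 CPM in endothelial-like cells.

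The members that neither passed 5 CPM in an epithelium nor 20 CPM in a class of at least 50 cells were Galnt9, Galnt14, Galntl5, B3gnt4, B3gnt6, B3gnt7, B3galt4, B3galt5, Gcnt4, Gcnt7, Fut1, Fut4, Fut7, St6galnac1, the second St6galnac2 entry, St6galnac5, St8sia6 and both antisense RNAs. These 19 genes ran from 0 to 4.18 CPM in WT and from 0 to 3.26 CPM in p63-KO epithelial-like cells.

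The layers of the WT esophagus differed among themselves, which bears on what p63-KO cells are set against. Between superficial and basal-like cells, 37 members were measured, and 14 were at least 2-fold higher and 7 at least 2-fold lower at the surface; over 11168 measured genes, 13.2% were higher and 32.6% lower. The members' median log2 ratio was 0.00 and that of all measured genes -0.52. Fut9 was 135-fold (103 to 181) higher at the surface, St8sia1 111-fold, Gcnt3 79.1-fold and B3gnt3 31.5-fold, and St3gal4 went from 63.6 CPM (60.3 to 67.0) to 521 CPM (506 to 536), 8.19-fold higher. Galnt7, Galnt12, Galnt4 and Galnt3 were 7.0-fold, 9.05-fold, 6.32-fold and 3.78-fold higher at the surface. Lower at the surface were Galnt18 (6.33-fold), St6gal1 (28.3-fold), St6galnac2 (26.0-fold), St3gal2 (21.6-fold), St3gal3 (6.12-fold), St6galnac3 (7.03-fold) and B4galt2 (9.63-fold). Of the 8 sialyltransferases measured in this comparison, 3 were higher and 5 were lower at the surface, and none was in between. This split says little beyond the filter: of the 5 lower, 4 were under 5 CPM in superficial cells, and of the 3 higher, 1 was in basal-like cells. Of the clusters between them, cluster 2 had 3 of 30 measured members higher and 5 lower than basal-like cells (7.82% and 10.6% of 10902 genes). Cluster 4 had 11 of 35 higher and 7 lower (11.2% and 23.9% of 11037 genes). The counts of cluster 2 and the lower count of cluster 4 were near these shares and say little about the members. Of the lower ones, 4 of 5 in cluster 2 and 5 of 7 in cluster 4 were under 5 CPM there. Of the 11 higher in cluster 4, 5 were under 5 CPM in basal-like cells. The members' median log2 ratios were 0.09 in cluster 2 and 0.21 in cluster 4. B4galt5, Galnt12 and St3gal1 were already higher in cluster 2, whereas Fut9, St8sia1 and B3gnt3 were higher from cluster 4 on. These folds come from cells of 1 library and have no replicate check.

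**Figure D3:**
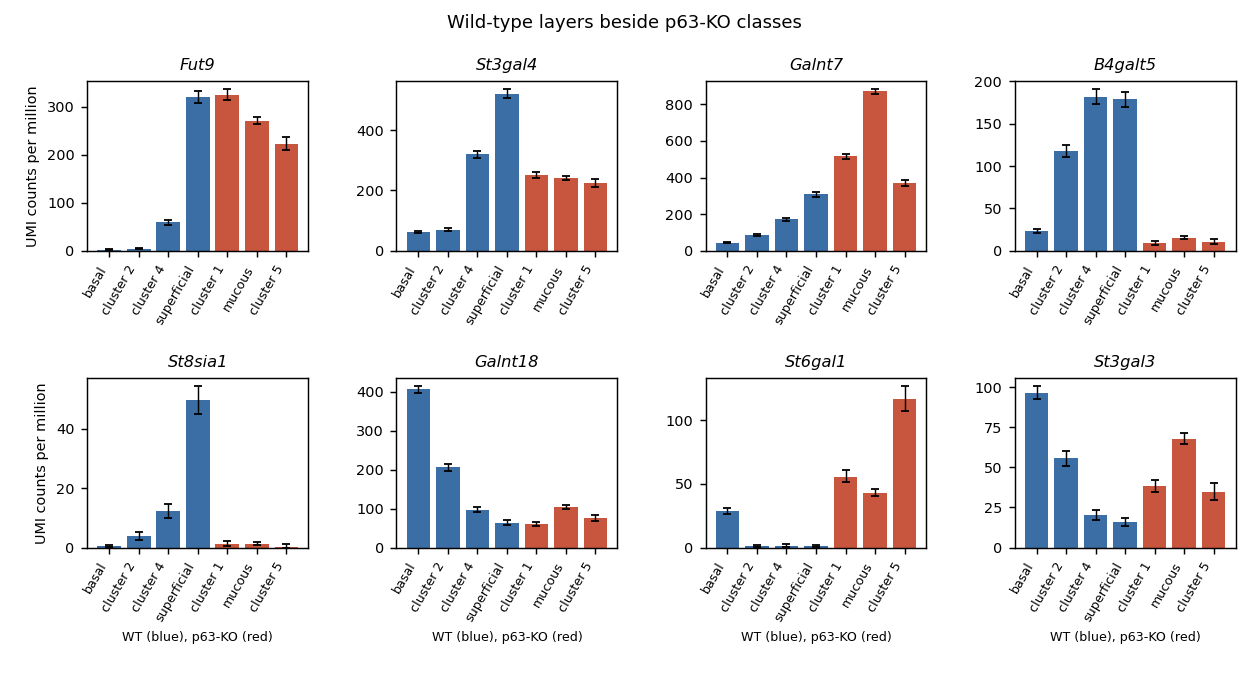
CPM of 8 members in WT layers (blue: basal-like, clusters 2 and 4, superficial) and p63-KO cells (red: cluster 1, mucous-like, cluster 5), with 95% counting intervals as error bars; each panel has its own axis from 0. Fut9 in p63-KO reaches the WT superficial level, St3gal4 stays below it and above basal-like cells, Galnt7 exceeds it in p63-KO cluster 1 and the mucous-like cells, and B4galt5 and St8sia1 stay far below it.

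Set beside the layers, mucous-like cells and p63-KO cluster 1 were like the WT surface in some members and unlike it in others. Mucous-like cells against WT superficial cells gave 45 measured members, 26 higher and 5 lower (24.1% and 8.89% of 10827 measured genes), and p63-KO cluster 1 gave 42, 19 higher and 6 lower (19.9% and 8.38% of 10577). These comparisons share the WT superficial cells. Fut9 was within 2-fold of the surface in both. Fut8 stood 17.6-fold (15.9 to 19.5) above the surface in mucous-like and 10.8-fold (9.78 to 12.0) above it in p63-KO cluster 1, Fut2 64.4-fold and 42.8-fold, Gcnt2 3.67-fold and 3.96-fold, and St6gal1 42.0-fold and 54.5-fold. B4galt5 was 11.6-fold and 19.7-fold below the surface, St8sia1 41.7-fold and 40.9-fold, B3gnt8 7.73-fold and 6.37-fold, Fut4 2.68-fold and 4.0-fold, and St3gal4 2.16-fold and 2.07-fold. Gcnt3 was 7.30-fold below it in p63-KO cluster 1 and 12.2 against 17.7 CPM in mucous-like cells.

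Against the basal layer, from which the squamous cells arise, mucous-like cells had 44 measured members, 28 higher and 3 lower (16.6% and 17.6% of 11401 genes), and p63-KO cluster 1 had 40, 23 higher and 6 lower (14.4% and 18.2% of 11261 genes). Galnt18, St3gal2 and B4galt2 were lower than in basal-like cells in both. St3gal3 was lower in p63-KO cluster 1 (38.2 against 96.6 CPM) and within 2-fold in mucous-like cells (67.8 CPM), and St3gal1 was higher in both, at 66.2 and 56.5 against 8.23 CPM.

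Against all WT epithelial-like cells, mucous-like cells had 45 measured members, 28 higher and 5 lower (13.5% and 14.8% of 11398 genes), and the members' median log2 ratio was 1.69 where that of all measured genes was -0.15. Cluster 1 of p63-KO had 41, 23 higher and 4 lower (10.6% and 14.7% of 11234 genes), with medians of 1.29 and -0.17. The unnamed cluster 5 had 41, 22 higher and 4 lower (11.6% and 12.4% of 11336 genes). Taken by cluster, mucous-like cluster 3 had 45 measured members, 27 higher and 4 lower (13.1% and 14.9% of 11377 genes), and cluster 6 had 44, 25 higher and 5 lower (14.5% and 15.9% of 11485 genes). Cycling-like cells of p63-KO against those of WT had 41, 24 higher and 4 lower (15.0% and 14.8% of 11388 genes). All but the last of these share the WT cells, and all draw on the same 2 libraries.

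Few members separated mucous-like cells from p63-KO cluster 1. Of 42 members measured between them, 4 were higher in mucous-like cells and 0 were lower, against 2.43% and 0.493% of 10545 measured genes, and 3 of the 4 were under 5 CPM in cluster 1. The 4 were Galnt6 (21.2 and 2.02 CPM, 10.5-fold (6.70 to 17.3)), Gcnt3 (12.2 and 2.43 CPM, 5.01-fold (3.30 to 7.96)), St6galnac6 (8.59 and 2.63 CPM, 3.27-fold) and Galntl6 (21.9 and 7.98 CPM, 2.75-fold). The depth differed, with medians of 54560 and 23436 UMIs per cell.

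The same 4 genes also separated the mucous-like clusters. Between cluster 6 and cluster 3, 42 members were measured, and 4 were higher and 3 lower in cluster 6 (2.67% and 1.51% of 10715 genes). St6galnac6 was 3.46-fold (2.57 to 4.67), Galntl6 3.23-fold, Galnt6 3.18-fold and Gcnt3 2.82-fold higher in cluster 6. St6galnac3 was 5.19-fold (3.82 to 7.22), Galnt13 3.59-fold and St6gal1 2.40-fold lower there. Cluster 6, led by Clca1 and Tff2, had the highest summed CPM of all members of any p63-KO cluster, 5458, against 4630 in cluster 3, 3833 in p63-KO cluster 1, 2410.4 in WT superficial and 1375 in WT basal-like cells; a sum of 3' counts weighs each gene by its captured transcripts.

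**Figure D4:**
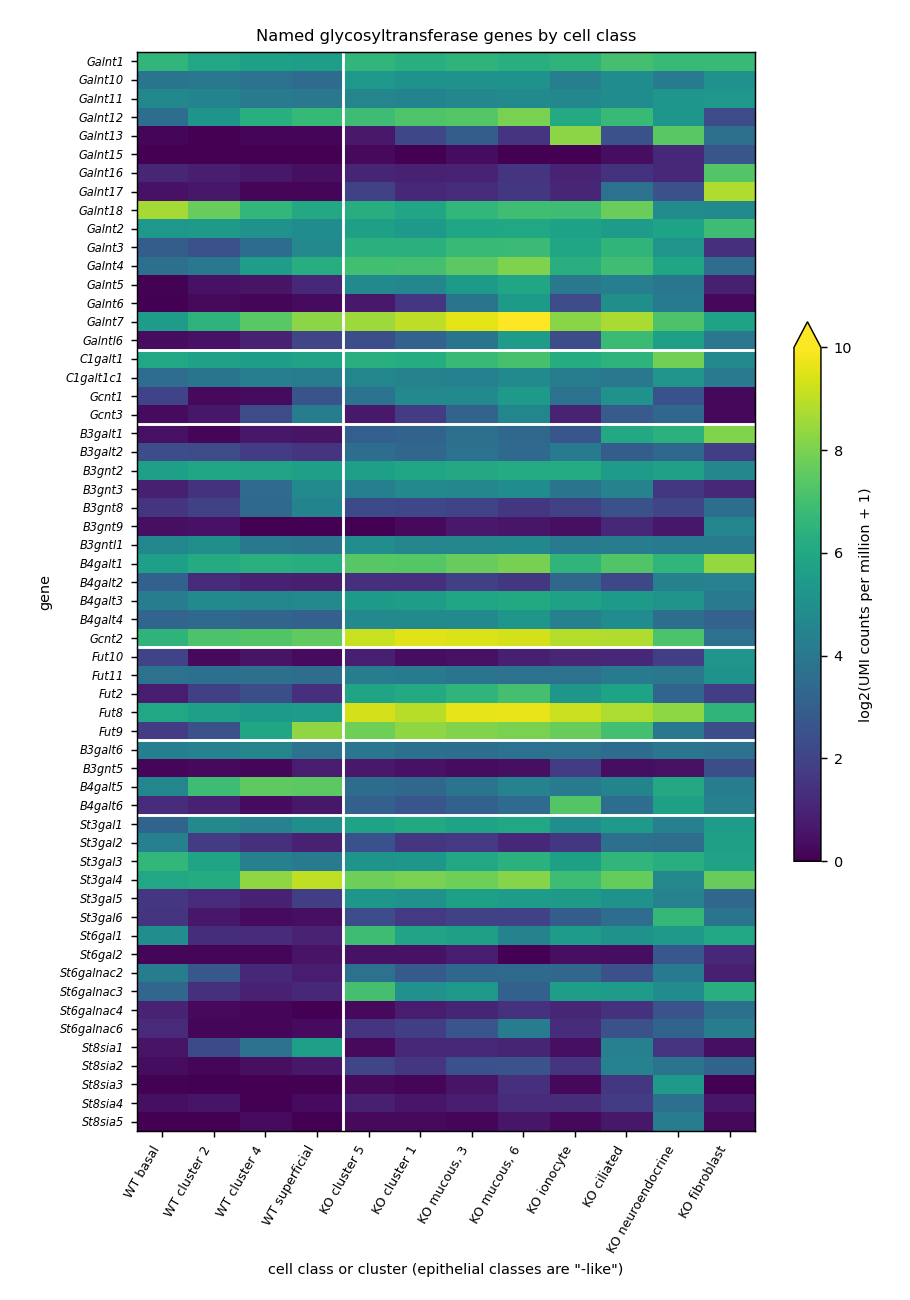
log2(CPM + 1) of the 58 members that reached 10 CPM in an epithelium or 20 CPM in a class of at least 50 cells, in rows grouped by role, over WT layers (left of the white line) and p63-KO classes with fibroblast-like cells (right). Galnt7, Gcnt2 and Fut8 are bright across the p63-KO epithelial-like classes, Galnt7 and Gcnt2 less so in neuroendocrine-like cells. Galnt13 is bright in ionocyte-like and neuroendocrine-like cells, and St8sia3, St8sia4 and St8sia5 are brightest in neuroendocrine-like cells.

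The neuroendocrine-like cells held several sialyltransferases that were near 0 in p63-KO cluster 1, and less of several capping and branching enzymes. Of 53 members measured between them, 23 were higher and 13 lower in neuroendocrine-like cells, beside 27.9% and 13.3% of 12263 genes. Of the 23 higher ones, 15 were under 5 CPM in cluster 1 and so were measured only through the neuroendocrine-like cells. Among 16 sialyltransferases measured, 11 were higher, 9 of which were under 5 CPM in cluster 1, so this count says little beyond the filter. Of the α2,8-sialyltransferases, St8sia3 was at 41.9 CPM (36.5 to 47.8) against 0.101 CPM and St8sia5 at 17.7 against 0.202. St8sia2 and St8sia4, which make polysialic acid, were at 13.3 against 2.02 and 11.6 against 0.505 CPM. These values are for the pooled class, and its clusters differed, with cluster 8 passing the fewest neuroendocrine markers. St8sia3 ran from 2.59 CPM in cluster 8 to 59.8 CPM in cluster 4. St8sia5 ran from 1.61 CPM (1 UMI) in cluster 11 to 21.03 CPM in cluster 4. The range of St8sia2 was 3.88 CPM in cluster 8 to 24.2 CPM in cluster 11. St8sia4 varied less, from 7.77 CPM in cluster 8 to 13.9 CPM in cluster 4. In the neuroendocrine-like class as a whole, St3gal6 was at 101 CPM (92.6 to 110.0) against 2.22 CPM. Low in these cells were Fut9 (21.6-fold lower), B3gnt3 (11.9-fold), St3gal4 (10.1-fold), Fut2 (7.93-fold), Gcnt2 (5.32-fold) and Gcnt1 (5.31-fold). Their median depth was 14518 UMIs.

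Between ionocyte-like cells and p63-KO cluster 1, 41 members were measured, and 4 were higher and 4 lower in ionocyte-like cells, beside 12.6% and 4.72% of 11054 genes. Of the 4 higher ones, 3 were under 5 CPM in cluster 1. Galnt13 was 87.4-fold (62.6 to 126) higher and B4galt6 29.9-fold (22.6 to 40.2) higher. Both were thus highest, among the classes of at least 50 cells, in the ionocyte-like cells. Ciliated-like cells (58 cells) against p63-KO cluster 1 had 46 measured members, 14 higher and 1 lower (20.6% and 2.63% of 11916 genes). Of the 14 higher ones, 8 were under 5 CPM in cluster 1. Among the higher were Galntl6 (112 CPM), St8sia1 (19.2 CPM) and St8sia2 (20.4 CPM), and the lower one was Fut9 (128 CPM). Fibroblast-like cells of the p63-KO library differed from its epithelium both ways, with 16 of 54 measured members higher and 22 lower (20.5% and 21.1% of 12666 genes). Of the 16 higher ones, 11 were under 5 CPM in the epithelial-like cells, and of the 22 lower ones, 11 were under it in the fibroblast-like cells.

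Genes of related steps, in lists outside the symbol rule, were compared between all p63-KO and WT epithelial-like cells, where 15.1% of all measured genes were higher and 8.80% lower. Sugar nucleotide synthesis had 22 measured genes, 10 higher and 0 lower, and a median of 0.67 on the log2 scale: Gfpt1, the entry enzyme of the hexosamine pathway, was at 69.1 CPM in WT and 316 CPM in p63-KO, 4.57-fold higher, Gfpt2 at 0.718 and 5.02 CPM and Uap1l1 at 3.71 and 22.0 CPM. Of 11 Golgi sugar nucleotide transporters, 1 was higher, Slc35b1, at 26.3 and 55.8 CPM, while Slc35a3 was at 36.7 and 61.5 and Slc35d1 at 38.0 and 19.9 CPM. N-glycan branching had 13 measured, 5 higher and 1 lower. Man1c1, a Golgi mannosidase, was at 0.410 CPM in WT and 75.1 CPM in p63-KO, Mgat4c at 0.938 and 24.2 and Mgat4b at 36.6 and 79.9 CPM. The 14 measured starters of other O-glycans (O-mannose, O-fucose, O-glucose, O-GlcNAc and xylose) had 0 higher and 0 lower and a median of 0.00, beside -0.02 over all measured genes.

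The acceptors of mucin-type glycans had 11 measured genes, 8 higher and 2 lower, with a median of 1.88. Muc5b, the gel-forming mucin, went from 0.0586 CPM in WT to 132 CPM in p63-KO, Muc1 from 1.85 to 224 and Muc16 from 19.1 to 600.4 CPM; Muc5b, Muc1 and Muc16 were also among the markers that named the classes. Other caps had 5 measured, 1 higher and 2 lower, with a median of -0.82. Ggta1, which makes the α-galactose cap, was at 68.1 CPM in WT and 2.52 CPM in p63-KO, 27.0-fold lower, B4galnt1 was at 11.3 and 2.82 CPM and A4galt at 1.77 and 6.03 CPM. Sulfotransferases had 2 measured, with Chst2 higher at 0.278 and 6.70 CPM and Gal3st1 within 2-fold. Only 6 lectins were measured, too few to set against the shares over all genes; 0 were higher and 2 were lower, Lgals7 at 56.4 and 8.58 CPM and Lgals1 at 36.0 and 15.8 CPM, and Lgals3 was at 269 and 524 CPM.

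For the 4 members with the largest log2 ratios among those at 20 CPM or more in the higher library, the genes with the most similar levels were sought over 22 clusters and other cell types of at least 50 cells, which come from only 2 libraries of unequal depth, among 11702 genes. The measure was Pearson's r of log2(CPM + 1). For Fut2 they were Agr2 (0.974), Slc14a1 (0.959) and Tff2 (0.954), and for Galnt5 they were Spdef (0.965), Ncmap (0.964) and Kcnn4 (0.96). For St3gal5 they were Man1c1 (0.946), Hk1 (0.944) and Mamld1 (0.930), and for Galnt13 Fxyd2 (0.939), Atp7a (0.928) and Insrr (0.920). Agr2, Tff2 and Spdef are markers of mucous cells and Slc14a1 was on the columnar list, so they took part in naming the classes.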

How the data were processed

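Single-cell RNA of mouse esophageal epithelium was counted with a 10x 3' kit, 1 library per genotype. Per the submitters' processing notes, reads were processed with Cell Ranger 7.1.0 on mm10. The deposited matrices hold raw UMI counts per gene and cell barcode, per the file headers. From these counts, cells were required to have 500 genes and 1000 UMIs or more and no more than 10% mitochondrial UMIs, which 5787 WT and 2422 p63-KO barcodes did, and 268 and 47 doublets were removed by simulated neighbours at 0.8% per 1000 cells. Counting was not stated to use strand: 8 members overlap another gene on the same strand and 39 one on the other strand, so their counts may mix.

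Clusters (Leiden, 2000 variable genes, 30 components, 20 neighbours, resolution 1 over both libraries and 0.6 within each; members kept out) were named by 3 or more markers in at least 25% of cells and 2-fold over the reference. That rule was set after the clusters were seen; p63-KO cluster 1 met it for columnar markers and was left unnamed because of its leading genes. UMIs were summed per class and divided by the total of all genes (CPM). Members were measured from 5 CPM in either group and called from 2-fold, without a test, and log2 ratios had 1 CPM added. Intervals are exact 95% Poisson (CPM), conditional binomial (folds) and Clopper-Pearson (shares) ones. A count of 0 was given the limit of 3 counts. Members from 10 CPM in an epithelium or 20 CPM in a class of at least 50 cells were named, with 3 genes per companion list. Alternatives varied the filters, thresholds, classes and thinning (2000 or 4000 UMIs). The members and lists were chosen with earlier results of these data known. Python 3.11.15, numpy 2.4.6, scipy 1.17.1, pandas 2.3.3, scikit-learn 1.9.0, igraph 0.11.9 and leidenalg 0.10.2 were used, and class sums were tested on simulated data.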

Additional observations from a re-analysis of the deposited data

How the results depend on the processing

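No paired analysis was possible because each genotype has 1 library. For the p63-KO against WT epithelial-like cells, the number of members at least 2-fold lower was 4, and 2 where genes were measured from 20 CPM. The median log2 ratio of measured members was 1.43; it was 1.71 with genes measured from 20 CPM, 0.99 from 1 CPM, 1.13 with 5 CPM added in place of 1, 1.66 in cells picked by Epcam or Cdh1, and 1.29 without the p63-KO clusters of over 40000 median UMIs, an alternative chosen after seeing the data. No value reversed. The other counts of called members stayed within 1.5 times of those reported, and the higher count ran from 21 to 36. With at most 5% mitochondrial UMIs no p63-KO cells took the columnar name that cluster 1 met by its markers. In that setting 173 took the suprabasal name, which none had otherwise, so it gave no value for cluster 1. In the other settings that regrouped cells the columnar name covered 274 to 574 p63-KO cells. Other classes also changed size over all of these settings. The mucous name covered 193 to 334 p63-KO cells, against 359 reported. WT superficial squamous-like cells ran from 358 to 675, against 393. WT basal-like cells ran from 1367 to 1857, against 2257, and WT cycling-like cells from 1415 to 2051, against 1337. Over the log2 ratios of the 58 named members under each setting, 415 stayed within their counting interval and 165 moved out of it without a change of sign in any called one. The settings differed: 37 of the 58 moved with 5 CPM added and 35 without the p63-KO clusters of over 40000 median UMIs. With every cell weighing equally 25 moved, as many as without ciliated-like, neuroendocrine-like and ionocyte-like cells, and with no doublets removed 0 moved. Depth limits members under 5 CPM, and counting intervals leave out the spread between embryos.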

Other observations

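Between WT superficial and WT basal-like cells, 13.2% of all measured genes were higher and 32.6% lower. Of 20 measured genes of sugar nucleotide synthesis 4 were higher and 4 lower, and of 11 Golgi sugar nucleotide transporters 2 were higher and 1 lower. The 3 genes given here were chosen after their values were seen. Cmas, which makes CMP-sialic acid, was at 722 CPM in WT superficial and 45.2 CPM in WT basal-like cells. Slc35a1, the CMP-sialic acid transporter of the Golgi, was at 191 and 30.9 CPM. Ggta1, which caps chains with α-galactose, went the other way, at 5.67 CPM in superficial and 105 CPM in basal-like cells. In the p63-KO epithelial-like cells Cmas was at 148 CPM and Slc35a1 at 95.5 CPM, against 247 and 69.4 CPM in WT.

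The low WT counts of Galnt6 and B3galt1 came mostly from few cells. The 26 ciliated-like cells of the WT library held 31 of its 36 epithelial Galnt6 UMIs and 69 of 93 B3galt1 UMIs. They held 24 of 51 St8sia2 UMIs and 11 of 61 Galntl6 UMIs. Galnt6 was at 42.7 CPM in these cells and at 30.3 CPM in the 58 ciliated-like cells of p63-KO. These WT cells number under 50, and no count of higher or lower members above was made for them as a class. They are part of the WT epithelial-like cells, so the WT levels of Galnt6 and B3galt1 and the B3galt1 fold above rest mostly on them.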
